A study of Rattus norvegicus with 16 samples.

Results

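Apart from Il17b and Tnni2, found in the same cells as Col10a1, the 9 genes here have known parts in cartilage cell enlargement or in the control of matrix mineralization. They were Col10a1, Ibsp, Alpl, Spp1, Runx2, Ankh, Enpp1, Il17b and Tnni2, and all of them were among the 13596 genes listed for every group and among the 11572 genes that passed the filter for testing. The set was chosen from the share of disc cells with Col10a1 above 0, from the genes detected in those cells, and from the levels in injured against uninjured discs. The injury comparison and the co-detection of these genes are therefore given as descriptions, with no test. The comparison between the times after surgery was not used in the choice and was tested. It uses the same libraries as the injury comparison, so its tests are not independent of the choice.

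Single cells were profiled from lumbar intervertebral discs of male Sprague-Dawley rats that were 8 weeks old at surgery. In each of 8 rats the L4-5 and L5-6 discs were stabbed with a needle (lumbar disc puncture, LDP), and the L2-3 and L3-4 discs of the same animal were left without puncture (CON). Discs were collected from rats 1 to 4 at 2 weeks and from rats 5 to 8 at 8 weeks after surgery, and the 2 discs of a condition were pooled into 1 library, which gave 16 libraries in 4 groups of 4. The CON discs thus came from operated animals and from lumbar levels above the punctured ones, and with 4 rats in a group there is no unoperated control. The rats collected at 8 weeks were also older, and the authors clustered each group of libraries separately, so time, age and library set cannot be told apart.

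In growth plate cartilage, chondrocytes stop dividing, swell and lay down type X collagen before their matrix calcifies. Mineral forms when phosphate is set free near collagen and is held back by inorganic pyrophosphate and by small acidic proteins. A healthy disc stays free of mineral in its nucleus and annulus, while hypertrophy-like cells and calcification are features described in degenerated discs and in the cartilage endplate.

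The authors named 127077 of 149272 cells intervertebral disc (IVD) cells, with 1313 to 14252 per library and a median of 8497. The median number of unique molecular identifiers (UMIs, counted mRNA molecules) per IVD cell was 4226 to 9889. Levels are given as the mean over IVD cells of UMIs per 1000000 UMIs of the cell (CPM). The summed level of 5 disc and cartilage genes (Acan, Col2a1, Comp, Fmod and Sox9) was 9031 to 28739 CPM, and none of these genes was at 0 in any group. Pairs of libraries shared at most 75 cell barcodes, and at most 0.72% of the smaller library. At 2 weeks the IVD cells were divided by the authors into cells of the nucleus pulposus (NP) and of the inner (IAF) and outer (OAF) annulus fibrosus, and the files give these as numbers. The names used here were given to the numbers by matching cell counts to the study's account, so every value by subcluster rests on that match.

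To show the start regions of the genes that were found together in the same cells, the 250 bases before the RefSeq transcription start (assembly GRCr8) are printed 5′ to 3′ on the gene's strand for 4 members. They are from chr20:39737286-39737535 (plus strand) for Col10a1, chr14:5757243-5757492 (minus strand) for Ibsp, chr5:155289786-155290035 (minus strand) for Alpl and chr1:207024240-207024489 (plus strand) for Tnni2. Capitals mark TATAAA or its reverse complement TTTATA.
Col10a1: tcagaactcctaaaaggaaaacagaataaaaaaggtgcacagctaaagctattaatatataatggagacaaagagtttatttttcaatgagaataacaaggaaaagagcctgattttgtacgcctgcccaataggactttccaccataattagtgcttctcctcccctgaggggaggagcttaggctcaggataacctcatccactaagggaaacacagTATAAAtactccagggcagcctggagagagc
Ibsp: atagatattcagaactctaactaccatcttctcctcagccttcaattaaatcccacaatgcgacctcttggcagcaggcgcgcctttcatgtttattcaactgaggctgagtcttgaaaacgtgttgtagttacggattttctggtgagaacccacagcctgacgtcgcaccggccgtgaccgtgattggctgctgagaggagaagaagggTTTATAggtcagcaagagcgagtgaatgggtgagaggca
Alpl: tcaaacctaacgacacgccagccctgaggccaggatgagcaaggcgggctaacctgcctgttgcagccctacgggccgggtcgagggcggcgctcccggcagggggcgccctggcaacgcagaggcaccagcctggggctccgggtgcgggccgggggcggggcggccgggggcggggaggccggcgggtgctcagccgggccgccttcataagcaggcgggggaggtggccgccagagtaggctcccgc
Tnni2: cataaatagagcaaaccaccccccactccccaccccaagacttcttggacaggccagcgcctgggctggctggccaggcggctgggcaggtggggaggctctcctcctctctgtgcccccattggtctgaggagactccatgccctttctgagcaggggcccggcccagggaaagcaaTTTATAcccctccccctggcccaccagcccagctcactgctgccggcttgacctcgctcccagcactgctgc
The match began 31 bases before the start in Col10a1, 39 in Ibsp and 72 in Tnni2, and these letters were not in the Alpl window. Among the other members they were found once before Spp1, 204 bases before the start, and not before Il17b, Ankh or either listed start of Runx2. They were in 12.9% of all 33469 windows of this length, and nothing about the members is read from these matches. The letters bound by RUNX proteins (TGTGGT or TGCGGT, and ACCACA or ACCGCA on the other strand) were in none of the 4 windows and in 19.0% of all windows. Among the other members RUNX letters were found once before Spp1 and once before 1 of the 2 listed starts of Runx2. RefSeq windows were matched for 8 of the 9 members.

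Col10a1 encodes type X collagen, the defining matrix protein of hypertrophic chondrocytes. In CON discs at 2 weeks its level was 48.9, 152, 110 and 48.9 CPM in rats 1 to 4, and in LDP discs of the same rats it was 176, 69.7, 227 and 56.5 CPM. LDP was higher in 3 of 4 rats and lower in rat 2, and the groups overlapped. The means were 89.9 ± 50.3 CPM in CON and 132 ± 82.7 CPM in LDP (SD, n = 4), a mean difference within rats of 0.49 on the log2 scale that ranged from -1.11 to 1.83 by rat. Without rat 1 the difference was 0.04, and without rat 2 it was 1.02.

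At 8 weeks the order of the means was the opposite. Col10a1 was at 207, 183, 279 and 105 CPM in CON discs of rats 5 to 8, and at 20.5, 130, 96.5 and 160 CPM in their LDP discs. LDP was lower in 3 of 4 rats and higher in rat 8. The means were 194 ± 71.5 CPM in CON and 102 ± 60.1 CPM in LDP (SD, n = 4), a difference of -1.17 on the log2 scale with a range by rat of -3.27 to 0.60. Rat 5 carried much of it, and without this animal the difference was -0.47. Over all genes tested the median difference at 8 weeks was -0.16.

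**Figure D1:**
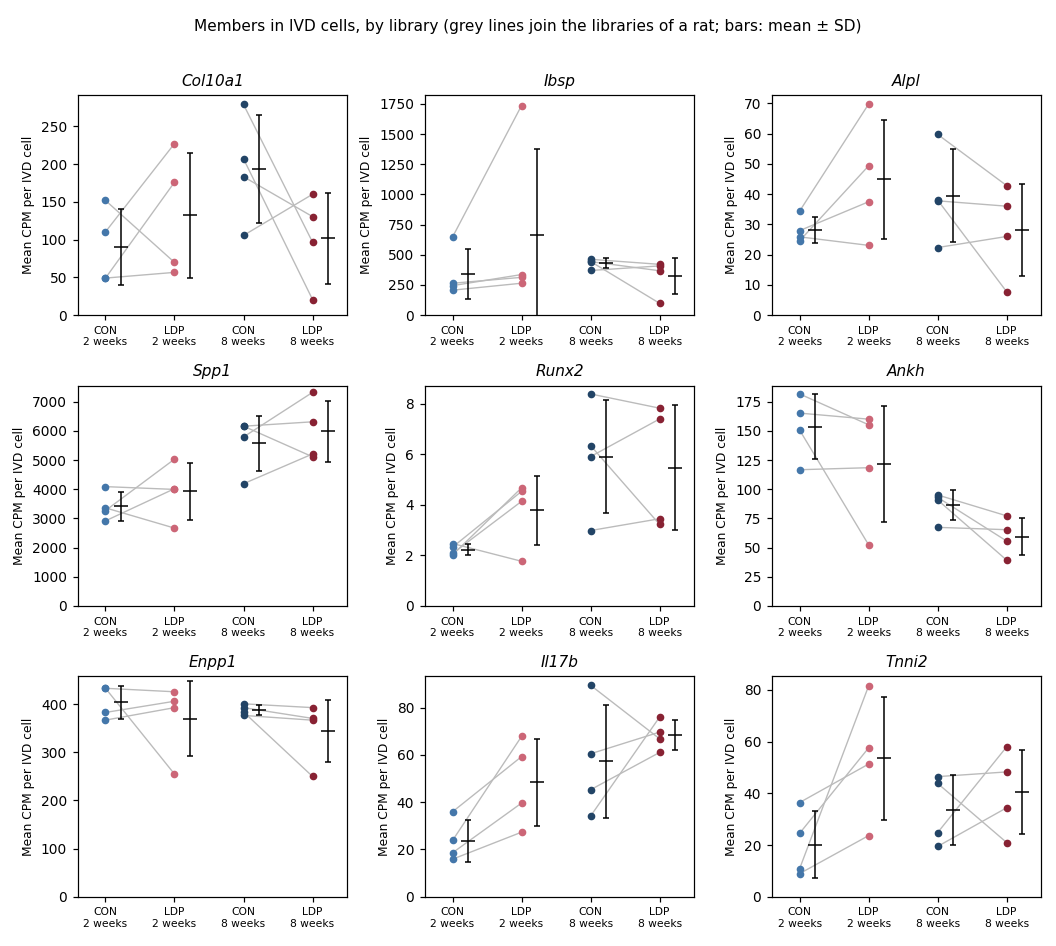
Mean level (CPM, linear axis that starts at 0 in each panel) of the 9 genes in IVD cells, with 1 point per library, lines joining the 2 libraries of a rat, and bars for the group mean with SD (n = 4). In the panel of Ibsp the lower SD bar of LDP at 2 weeks runs below 0, since 1 library stood at 1737 CPM and the other 3 at 264 to 335 CPM.

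The share of IVD cells with a Col10a1 UMI was compared after each cell was thinned to 1000 UMIs, with shallower cells left out, since deeper cells show a rare mRNA more often. At 2 weeks this share was 1.71%, 5.18%, 4.20% and 1.78% in CON and 3.94%, 2.36%, 5.90% and 2.72% in LDP for rats 1 to 4. LDP was higher in 3 of 4 rats, with means of 3.22% and 3.73% and a difference of 0.51 percentage points, which was -0.06 without rat 1. At 8 weeks it was 8.97%, 6.66%, 9.56% and 4.21% in CON and 1.49%, 5.87%, 4.92% and 5.62% in LDP for rats 5 to 8, with means of 7.35% and 4.47% and a difference of -2.88 percentage points. With all UMIs of each cell the shares ran from 3.06% to 17.7% over the 16 libraries, with a difference of 0.71 percentage points at 2 weeks and -4.71 at 8 weeks.

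Endothelial, myeloid and lymphoid cells, which are not known to make type X collagen, gave the background of this measure. The thinned share of endothelial cells was 0.233% in CON and 0.341% in LDP at 2 weeks, and 0.699% in LDP at 8 weeks, below the IVD share in every group where both were present. The mean share of myeloid cells was 0.142% in CON and 0.682% in LDP at 2 weeks, with 1.50% in the highest library, and 0.216% in CON at 8 weeks. Lymphoid cells gave 0.427% in LDP at 2 weeks, with 1.26% in the highest library, and 0.276% in CON at 8 weeks. By library, the endothelial share in LDP at 8 weeks was 0.134% in rat 5, 1.18% in rat 7 and 1.48% in rat 8, against IVD shares of 1.49%, 4.92% and 5.62%. In rat 6 none of 55 endothelial cells had a Col10a1 UMI, which allows up to 5.45%. The median depth was at least 1685 UMIs in the endothelial and 4226 UMIs in the IVD cells of each library of CON at 2 weeks.

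**Figure D2:**
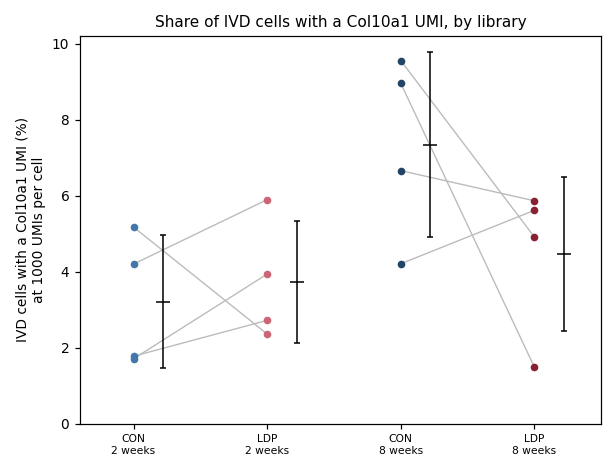
Share of IVD cells with at least 1 Col10a1 UMI (percent, cells thinned to 1000 UMIs) in each of the 16 libraries, with lines joining the libraries of a rat and bars for the group mean with SD (n = 4). CON at 8 weeks had the highest mean share, 7.35%, and the lines ran upward in 3 of 4 rats at 2 weeks and downward in 3 of 4 rats at 8 weeks.

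Col10a1 mRNA sat in few cells. The 1% of IVD cells with the most UMIs of the gene held 55.2% of its UMIs in the median library, with a range of 36.3% to 82.2%. The same measure was 73.3% for Tnni2, 52.5% for Alpl, 41.9% for Ibsp and 30.3% for Il17b. It was 9.37% for Ankh, 8.06% for Spp1 and 6.03% for Enpp1, which were spread over many cells. This measure rises as fewer cells have a UMI of the gene, and for Runx2, with a UMI in 0.847% to 5.03% of IVD cells, it was 100% in 3 libraries for that reason. Among cells with a Col10a1 UMI, the median level per library ran from 381 to 852 CPM in CON and from 510 to 834 CPM in LDP at 2 weeks, and from 465 to 689 CPM and 220 to 882 CPM at 8 weeks, so the level within positive cells overlapped between groups at both times.

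Ibsp and Spp1 encode bone sialoprotein and osteopontin, acidic phosphoproteins of the SIBLING family that bind mineral, the first a nucleator of crystals and the second largely an inhibitor of their growth. Ibsp was at 646, 263, 244 and 206 CPM in CON and at 1737, 312, 335 and 264 CPM in LDP at 2 weeks. LDP was higher in all 4 rats, as were 8.46% of all genes tested, with a mean difference of 0.62 on the log2 scale and a range by rat of 0.24 to 1.42. Rat 1 was the highest of its group in both conditions, and without it the difference was 0.35. At 8 weeks Ibsp was at 444, 462, 443 and 369 CPM in CON and at 97.1, 420, 367 and 407 CPM in LDP, a difference of -0.61 that was -0.09 without rat 5.

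Spp1 was found in most disc cells, with mean thinned shares of 78.9% to 88.3% over the groups. It was at 2914, 3360, 4088 and 3267 CPM in CON and 4017, 2666, 3993 and 5030 CPM in LDP at 2 weeks, higher in LDP in 2 of 4 rats. At 8 weeks it was at 6161, 4187, 6159 and 5790 CPM in CON and 5111, 5208, 6310 and 7320 CPM in LDP, higher in LDP in 3 of 4 rats. The differences of 0.18 and 0.10 on the log2 scale were smaller than their spread between rats (SD 0.44 and 0.28).

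Alpl, Enpp1 and Ankh set the balance of phosphate and pyrophosphate outside the cell. Alpl encodes the alkaline phosphatase that breaks down pyrophosphate, Enpp1 the enzyme that makes it from nucleotides, and Ankh the membrane protein that brings ATP and pyrophosphate out of the cell. Alpl was at 34.4, 25.9, 24.5 and 27.9 CPM in CON and 69.8, 23.1, 49.4 and 37.5 CPM in LDP at 2 weeks, higher in LDP in 3 of 4 rats with a difference of 0.56. At 8 weeks it was lower in LDP in 3 of 4 rats with a difference of -0.62, which was -0.11 without rat 5.

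Ankh was lower in LDP in 3 of 4 rats at 2 weeks and in 4 of 4 at 8 weeks, a direction that 26.2% of all genes tested shared in all 4 rats. Its levels were 165, 117, 182 and 151 CPM in CON against 160, 119, 155 and 52.4 CPM in LDP at 2 weeks, and 90.9, 67.3, 93.1 and 95.1 CPM against 39.2, 65.3, 55.6 and 77.2 CPM at 8 weeks. The differences were -0.44 and -0.57 on the log2 scale. That at 2 weeks came mostly from rat 4 and was -0.08 without it, and that at 8 weeks was -0.36 without rat 5. Enpp1 differed by -0.15 and -0.19, with group means of 345 to 404 CPM, and the difference was 0.05 without rat 4 at 2 weeks and -0.05 without rat 5 at 8 weeks.

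Runx2, the transcription factor that drives chondrocyte hypertrophy and bone formation, had the fewest UMIs of the members, with 60 to 372 UMIs in the IVD cells of a library. Its level was 2.47, 2.32, 2.01 and 2.07 CPM in CON and 1.76, 4.53, 4.67 and 4.13 CPM in LDP at 2 weeks, higher in LDP in rats 2, 3 and 4. At 8 weeks the means were 5.90 ± 2.23 CPM in CON and 5.47 ± 2.48 CPM in LDP (SD, n = 4), and the sign of the small difference, -0.11, turned to 0.12 without rat 5, 0.04 with TMM scaling of summed counts and 0.13 when all cells were used.

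Il17b and Tnni2 are not known as parts of mineralization and were included because they were detected in the same cells. Il17b encodes a secreted cytokine of the interleukin-17 family that signals through the receptor encoded by Il17rb. It was at 18.6, 15.9, 23.8 and 35.9 CPM in CON and 39.6, 27.3, 67.8 and 59.2 CPM in LDP at 2 weeks. The LDP level was the higher one in all 4 rats, as for 8.46% of all genes tested. The difference was 0.99 on the log2 scale, with a range by rat of 0.71 to 1.47, and 0.84 to 1.09 when any of these rats was left out.

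Tnni2 encodes the inhibitory troponin of fast skeletal muscle, which is also made in some cells outside muscle. It was at 36.4, 8.93, 24.5 and 10.8 CPM in CON and 51.3, 23.6, 57.6 and 81.5 CPM in LDP at 2 weeks. LDP was higher in all 4 rats, as for 8.46% of all genes tested, with a difference of 1.45 on the log2 scale. The range by rat was 0.48 to 2.81, and the difference was 1.00 without rat 4. Its partners in the fast fibre were low, with group means of 2.87 to 4.98 CPM for Tnnt3 and 0.24 to 0.69 CPM for Tnnc2, and the summed level of the skeletal muscle list, 5 of whose 13 genes were listed in every group, was 4.09 to 25.4 CPM, higher in CON at 2 weeks (15.6 to 25.4) than in LDP (8.77 to 18.0).

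At 8 weeks both genes were higher in LDP in 3 of 4 rats, with differences of 0.34 for Il17b and 0.25 for Tnni2 that were smaller than their spread between rats (SD 0.64 and 0.98), and each turned on single rats. That of Il17b was 0.07 without rat 8 and 0.59 without rat 7, and that of Tnni2 was -0.06 without rat 8 and 0.68 without rat 5. For all 9 members the CON and LDP libraries overlapped at both times, whereas 2.7% of all genes tested were higher and 4.36% lower without overlap at 2 weeks, and 2.44% and 11.3% at 8 weeks. Over all genes tested, 0.181% at 2 weeks and 0.259% at 8 weeks passed the adjusted p threshold of 0.05 in this comparison (limma, rat as block), and nothing is read from the members' own values against these shares, since the comparison chose the members.

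Bone cells were looked for because Ibsp, Alpl and Runx2 are also made by osteoblasts. In IVD cells 5 of the 8 osteoblast and osteocyte genes were listed in every group, and their summed level was 2.39 to 343 CPM in CON and 3.11 to 535 CPM in LDP at 2 weeks, and 3.31 to 490 and 4.40 to 1003 CPM at 8 weeks, mostly Bglap (osteocalcin) where it was high. The share of IVD cells with a Bglap UMI was 0.0357% to 33.3% over the libraries. The library with the most Ibsp, LDP of rat 1, had 3 such cells of 8397 and a summed bone level of 3.11 CPM, the lowest of its group. In CON of the same rat, which had the most Ibsp of its group, the summed bone level was 343 CPM, the highest of its group. When cells with a Bglap UMI were left out, a choice made after seeing the data, the differences at 2 weeks were 0.36 for Col10a1, 0.61 for Ibsp, 0.51 for Alpl, 0.46 for Runx2, 0.98 for Il17b and 1.47 for Tnni2, and at 8 weeks -1.16 for Col10a1, -0.64 for Ibsp and -0.65 for Alpl. Endothelial genes in IVD cells were also higher in CON (34.0 to 192 CPM summed) than in LDP (13.9 to 28.6 CPM) at 2 weeks, and their part in the differences was not tested.

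The members differed in level between the subclusters. At 2 weeks the mean level of Col10a1 in CON discs was 4.69 CPM in OAF cells, against 80.5 CPM in NP and 181 CPM in IAF cells. In LDP discs it was 11.4 CPM in OAF, 113 CPM in NP and 179 CPM in IAF. Il17b had the same order, in NP, IAF and OAF at 22.7, 29.6 and 5.98 CPM in CON and 47.3, 60.4 and 7.10 CPM in LDP, and so did Tnni2, at 21.2, 24.7 and 2.63 CPM and 58.4, 60.1 and 7.86 CPM. OAF cells were below NP and below IAF cells in 8 of 8 libraries for these 3 genes. Ankh was lower in OAF as well, at 94.8 CPM against 163 CPM in NP and 164 CPM in IAF of CON discs. Its OAF level was above NP or IAF in 0 of 4 CON and 0 of 4 LDP libraries. Spp1 in OAF was above IAF in 0 of 4 CON and 0 of 4 LDP libraries, and above NP in 1 of 4 LDP libraries. Between NP and IAF, Il17b was higher in IAF in 8 of 8 libraries. The 2 also differed in depth, since every NP cell had at least 2000 UMIs and IAF cells were shallower in each library. In CON of rat 3 the median was 7822 UMIs in NP and 2442 UMIs in IAF cells. The part of depth in the differences between subclusters was not tested. Col10a1 was higher in IAF in 4 of 4 LDP libraries, by 0.73 on the log2 scale with a range of 0.50 to 1.20, and in 2 of 4 CON libraries, where rat 2 stood at 490 CPM in IAF.

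Runx2 had its highest means in OAF. In CON discs its mean was 8.65 CPM in OAF against 1.23 CPM in NP and 1.35 CPM in IAF, and in LDP discs 13.9 against 2.24 and 1.99 CPM. OAF was above NP in 8 of 8 libraries and above IAF in 7. Ibsp and Alpl did not keep to either pattern, and Ibsp was at 391 CPM in OAF, 254 CPM in NP and 404 CPM in IAF of CON discs.

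Within NP and IAF taken alone, Il17b and Tnni2 were higher in LDP in 4 of 4 rats, by 0.99 and 1.00 for Il17b and 1.53 and 1.27 for Tnni2 on the log2 scale. In OAF Tnni2 rested on 2 to 29 UMIs per CON library, with means of 2.63 CPM in CON and 7.86 CPM in LDP. It was higher in LDP in 4 of 4 rats there and also in 4 of 4 rats in endothelial cells, with endothelial means of 1.03 and 4.10 CPM, and the part of free RNA in either was not tested. Col10a1 was higher in LDP in 2 of 4 rats in NP and 3 of 4 in IAF. The share of all genes higher in LDP in 4 of 4 rats was not counted within subclusters or endothelial cells. The subclusters came from the authors' clustering of each group, so these values compare cells that were grouped separately.

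**Figure D3:**
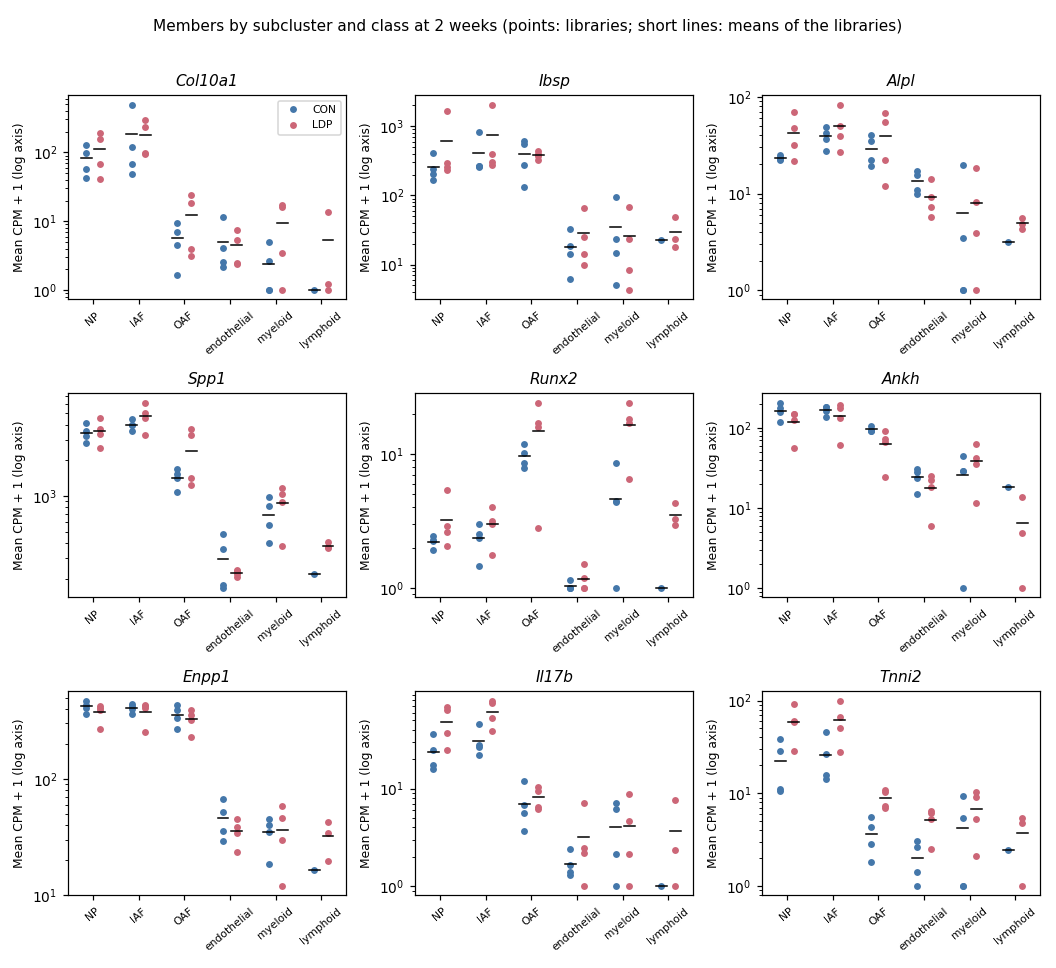
Mean level of each gene at 2 weeks (mean CPM + 1, logarithmic axis) in NP, IAF and OAF cells and in the other classes named by the authors, with 1 point per library (blue for CON, red for LDP) and a short line at each mean. Col10a1, Il17b and Tnni2 were lower in OAF than in NP and IAF in 8 of 8 libraries, and Runx2 was higher in OAF than in NP in 8 of 8.

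Outside the IVD cells, the group means of Col10a1, Il17b and Tnni2 in endothelial, myeloid and lymphoid cells were at most 10.0, 3.99 and 5.74 CPM. Il17b was not found in any of 337 myeloid cells of CON at 8 weeks, which allows up to 0.890% of cells with a UMI, and Runx2 in none of 662 endothelial cells of LDP at 8 weeks, which allows 0.453%. These limits pool 4 libraries, cover counting error only and do not limit the share of cells that express the gene. Runx2 was present in myeloid cells, with means of 3.60 and 15.5 CPM in CON and LDP at 2 weeks and 47.8 and 34.4 CPM at 8 weeks. These rested on few UMIs, with 0 to 9 per CON and 1 to 31 per LDP library at 2 weeks. At 8 weeks there were 2 to 76 per CON and 3 to 18 per LDP library. Spp1, which macrophages also secrete, was at 691 and 865 CPM in myeloid cells at 2 weeks and 957 and 2330 CPM at 8 weeks, below its level in IVD cells of the same groups. The lymphoid class was present in 1 CON library at 2 weeks, with 91 cells.

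In the median library, each pair of the members other than Spp1, Ankh and Enpp1 was detected together more often than the shares alone would give. Some pairs with Spp1, Ankh or Enpp1 were too, by a smaller factor. For each pair, each cell was thinned to 1000 UMIs and shallower cells were left out. The share of IVD cells with UMIs of both genes was then divided by the product of their shares. The result is 1 where detection of one gene is unrelated to that of the other. This ratio was 6.79 for Col10a1 and Alpl in the median of 16 libraries, with a range of 2.57 to 12.1. It was 4.27 for Col10a1 and Ibsp (2.44 to 6.22), 4.52 for Col10a1 and Tnni2 (1.89 to 14.4), 3.54 for Col10a1 and Il17b and 3.01 for Col10a1 and Runx2, and was above 1 in all 16 libraries for each of these pairs.

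Pairs without Col10a1 were less uniform. The median ratio was 5.38 for Alpl and Tnni2, 5.15 for Alpl and Runx2, 4.86 for Ibsp and Alpl, 4.25 for Il17b and Tnni2 and 3.46 for Ibsp and Tnni2, the last above 1 in 15 of 16 libraries. It was 1.78 for Ibsp and Il17b, above 1 in 16 libraries, and 2.23 for Runx2 and Il17b, above 1 in 14 with a lowest value of 0.447. Ankh, found with all UMIs in 24.8% to 53.1% of IVD cells, had medians of 0.783 (with Alpl) to 1.06 (with Ibsp) with these 6 genes. With all UMIs Spp1 was found in 89.3% to 98.95% and Enpp1 in 72.6% to 86.3% of IVD cells. The ratio cannot exceed 1 divided by a gene's share in the thinned cells. The thinned shares of Spp1, given above, were also high, so its ratio could not rise far above 1. Its medians with the same 6 genes were 0.918 (with Runx2) to 1.11 (with Col10a1), the last above 1 in 15 of 16 libraries. For Enpp1 the medians with the same 6 genes were 0.934 (with Runx2) to 1.16 (with Col10a1). Cells with a Col10a1 UMI had 1.01 times the median UMIs of the cells without one in the median library, and this measure of depth was 1.04 for Alpl and Runx2, 1.11 for Ibsp, 1.16 for Tnni2 and 1.17 for Il17b. For Ankh, Enpp1 and Spp1, found in many cells, it was 1.32, 1.50 and 1.55.

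Within NP and IAF cells the joint detection was present as well. Within NP cells at 2 weeks the median ratio of Col10a1 and Alpl was 10.0 over 8 libraries, and within IAF cells it was 8.31. For Col10a1 and Ibsp it was 5.42 in NP and 5.26 in IAF. In OAF cells, where Col10a1 was rare, the medians were 5.20 with Alpl (0.325 to 30.7) and 2.16 with Ibsp (0.511 to 4.66). They were 0.775 with Runx2 (0 to 3.80), 0 with Il17b (0 to 28.2) and 0 with Tnni2 (0 to 15.7). Only 3 to 29 OAF cells per library had a Col10a1 UMI, too few to read a median of 0 as absence of joint detection. Between conditions, the ratio of Col10a1 and Ibsp at 2 weeks was 3.92 ± 0.937 in CON and 5.65 ± 0.548 in LDP (SD, n = 4), higher in LDP in 4 of 4 rats, and that of Ibsp and Alpl was 3.95 ± 0.862 and 5.79 ± 0.469. The groups did not overlap for these 2 of 36 pairs, nor at 8 weeks for 2 others, Ankh with Enpp1 and Spp1 with Il17b, both lower in LDP, and nothing is read from so few. The ratio of Il17b and Tnni2 went the other way, at 5.94 ± 1.45 in CON and 4.05 ± 0.936 in LDP, lower in LDP in 4 of 4 rats. At 8 weeks the ratio of Col10a1 and Ibsp was higher in LDP in 3 of 4 rats.

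**Figure D4:**
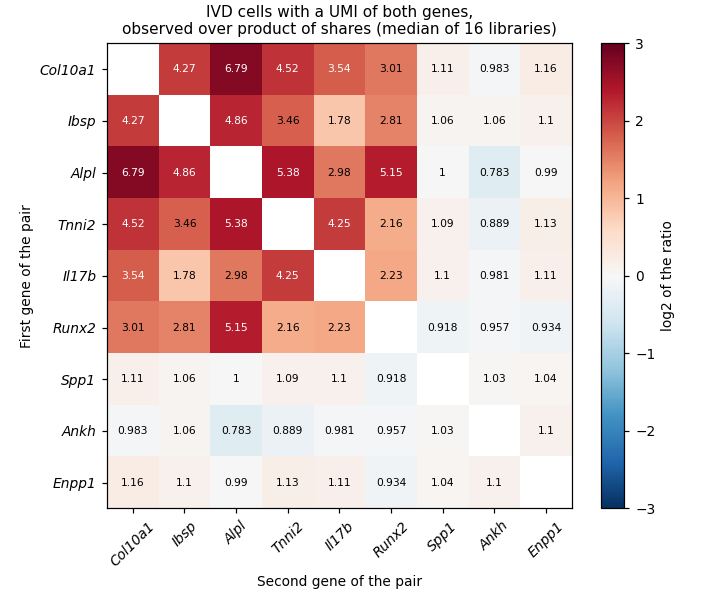
Observed share of IVD cells with UMIs of both genes of a pair, divided by the product of their shares (median of 16 libraries). Cells were thinned to 1000 UMIs. Each square of the grid is 1 pair, coloured by the log2 of the ratio. Col10a1, Ibsp, Alpl, Runx2, Il17b and Tnni2 form a block of high ratios, with 6.79 for Col10a1 and Alpl. The ratios of Spp1 with the genes of the block were 0.918 to 1.11. They have an upper limit not far above 1, since most IVD cells had a UMI of this gene. Those of Enpp1 with the genes of the block were 0.934 to 1.16, and those of Ankh 0.783 to 1.06.

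When all genes were ranked by their level in Col10a1-positive against Col10a1-negative IVD cells, 4 other members stood in the first 5 places of 7739 genes. The set was chosen in part from genes detected in those cells, so nothing is read from the places of the members. The median log2 ratio over 16 libraries, with 10 CPM added to both levels, was 2.80 for Ibsp, 2.60 for Alpl, 1.93 for Tnni2, 1.74 for Sfrp5 and 1.61 for Il17b. Sfrp5 encodes a secreted antagonist of WNT ligands. Others among the first 10 were Cd200 (1.61), a surface glycoprotein, the growth factor Fgf1 (1.46), Atp1b1 (1.45), a subunit of the sodium pump, and RGD1305645 (1.31), named Ecrg4 by RefSeq. Each of these was higher in the positive cells in 16 of 16 libraries.

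The genes most like Ibsp were Col10a1 (3.21), Bglap (2.80), Alpl (2.36), Tnni2 (1.95) and Col1a1 (1.69), and those most like Alpl were Ibsp (3.64), Bglap (3.49), Col10a1 (2.94), Tnni2 (2.83) and Sfrp5 (2.28). Cells with Runx2 were led by Bglap (2.84, higher in 12 of 16 libraries), Alpl (2.37) and Ibsp (2.32). Cells with Il17b were led by Tnni2 (2.17) and Col10a1 (2.14), and cells with Tnni2 by Col10a1 (2.22), Alpl (2.04) and Ibsp (2.00), and Bglap was not among the first 5 of either.

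The lists of Spp1, Ankh and Enpp1 held none of the other members in their first 5 places. Further down, Col10a1 was in place 12 of 7827 for Spp1 (1.67, higher in 16 of 16 libraries) and Tnni2 in place 26 (1.44, 14 of 16). Alpl was in place 4940 for Spp1 (-0.20). Col10a1 was in place 15 of 7789 for Enpp1 (0.55, 11 of 16) and in place 3821 of 7665 for Ankh. Spp1 was most like Frzb (2.34), a WNT antagonist of articular cartilage, Prg4 (2.31), which encodes lubricin, Tekt1 (2.24) and Grem1 (2.07), an antagonist of bone morphogenetic proteins. Enpp1 was most like Prg4 (0.88) and Col2a1 (0.79), and Ankh was most like Col2a1 (0.86) and Wif1 (0.61). Cells with an Spp1, Ankh or Enpp1 UMI were deeper, most of all for Spp1, as given above. The part of depth in the ratios of these 3 lists was not tested.

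Between 2 and 8 weeks, 3 of the 9 rose in CON discs and 1 rose and 1 fell in LDP discs. This comparison did not choose the members, but it shares its libraries with the injury comparison, which did. In all, 8.33% of genes tested changed in CON (3.7% higher, 4.63% lower) and 14.3% in LDP (4.59% higher, 9.75% lower) by limma at an adjusted p of 0.05. In CON, Il17b rose by 1.23 on the log2 scale (SE 0.30, limma adjusted p = 0.0218), from 23.5 ± 8.89 to 57.3 ± 24.0 CPM (SD, n = 4). Its libraries overlapped, since rat 8 (34.1 CPM) was below rat 4 (35.9 CPM).

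Markers of cell types moved over the same time in the same IVD cells. Col2a1, the main collagen of disc and cartilage, fell by 2.04 in CON (limma adjusted p = 0.0112) and 2.57 in LDP (adjusted p = 0.00157), Acan and Comp also fell in both, and the median summed level of the 5 disc and cartilage genes went from 25209 to 12021 CPM in CON and from 22985 to 10166 CPM in LDP. Of the 6 endothelial genes, Cdh5 fell by 2.38 (adjusted p = 0.0126), and Emcn, Plvap and Egfl7 also fell, in CON, and Egfl7 fell in LDP (adjusted p = 0.00988). Ctsk of the osteoclast list fell by 0.98 in CON (adjusted p = 0.0169) and 1.33 in LDP (adjusted p = 0.00162), with Acp5 also lower in LDP, and Pvalb of the skeletal muscle list fell in both (adjusted p = 0.00245 and 0.00693). None of the 5 osteoblast and osteocyte genes tested passed by limma or edgeR, with 1 at an unadjusted p under 0.05 in CON and 0 in LDP, and the median summed bone level went from 5.18 to 60.0 CPM in CON and from 158 to 230 CPM in LDP. Their part in the members' changes was not tested.

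Runx2 rose in CON by 1.04 (SE 0.29, limma adjusted p = 0.0398), from 2.22 ± 0.212 to 5.90 ± 2.23 CPM, with every library at 8 weeks above those at 2 weeks, as for 9.66% of all genes tested. At this low level the size depended on the scale, from 0.37 with a pseudocount of 10 to 1.44 by edgeR with TMM. Spp1 rose in CON by 0.70 (SE 0.19, adjusted p = 0.0313), from 3407 ± 493 to 5575 ± 941 CPM, and in LDP by 0.63 (adjusted p = 0.0353), from 3926 ± 969 to 5987 ± 1042 CPM, without overlap in either condition, as were 6.17% of all genes in LDP. Ankh fell in LDP by 0.94 (SE 0.29, adjusted p = 0.0389), from 122 ± 49.7 to 59.4 ± 16.1 CPM. In CON Ankh went from 154 ± 27.7 to 86.6 ± 13.0 CPM without overlap, like 14.2% of all genes, and its adjusted p was 0.0938.

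Each of these calls was lost when some of the rats were left out. That of Il17b in CON was lost without rat 1, 3, 5, 6 or 7 (adjusted p 0.0522 to 0.0926 without one of them), that of Runx2 without any rat but rat 8 (0.0572 to 0.122), that of Spp1 in CON without rat 1, 3, 5, 7 or 8 (0.0544 to 0.113), that of Spp1 in LDP without rat 1, 2, 3, 5, 7 or 8 (0.0519 to 0.131) and that of Ankh in LDP without rat 1, 2, 3, 5, 6 or 7 (0.0635 to 0.136). Without rat 4 the fall of Ankh in CON passed (0.0273). All 5 were also lost when all cells of a library were used (0.0516 to 0.202), and those of Spp1 by edgeR with TMM (0.0537 in CON and 0.0628 in LDP). The direction was the same in each of these.

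The remaining members did not pass. The mean of Col10a1 in CON was 89.9 CPM at 2 weeks and 194 CPM at 8 weeks, a log2 change of 1.19 (SE 0.59, limma adjusted p = 0.226), and in LDP the change was -0.47 (adjusted p = 0.620). Adjusted p in CON was 0.268 for Tnni2, 0.623 for Ibsp, 0.602 for Alpl and 0.879 for Enpp1. In LDP it was 0.218 for Il17b, 0.225 for Alpl, 0.379 for Ibsp, 0.364 for Runx2, 0.613 for Tnni2 and 0.732 for Enpp1. Whether the changes over time differed between CON and LDP was not tested, since that difference holds the injury comparison.

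**Figure D5:**
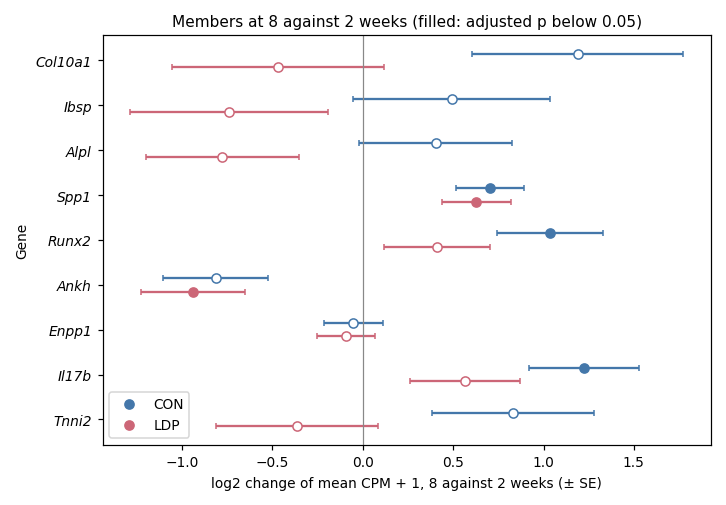
Log2 change from 2 to 8 weeks of each of the 9 genes in CON and in LDP discs, with bars for the standard error (limma on mean CPM + 1, 4 libraries a group) and filled points for an adjusted p under 0.05. Il17b, Runx2 and Spp1 in CON, and Spp1 and Ankh in LDP, passed an adjusted p of 0.05.

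The other genes of the pathways were read from 7 lists that held 97 genes beside the members, 72 of them tested. In the injury comparison at 2 weeks 0 of the 72 passed the limma test, with 13 at an unadjusted p under 0.05 and 0 by edgeR with TMM. Over all 11572 genes 0.181% passed and 1331 were at an unadjusted p under 0.05. The median change of the 72 was -0.17 against -0.08 over all genes. At 8 weeks 0 were higher and 1 was lower, with 0.259% of all genes past the test and a median of -0.22 against -0.16. The gene was Sparcl1, a matrix relative of osteonectin, which fell by 1.58 on the log2 scale (limma adjusted p = 0.0332), from 112 CPM in CON to 38.7 CPM in LDP.

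Over time 3 of the 72 were higher and 6 lower in CON, and 2 higher and 15 lower in LDP, with medians of -0.09 and -0.22 against -0.02 and -0.09 over all genes. Over all genes tested 3.7% were higher and 4.63% lower in CON, and 4.59% and 9.75% in LDP. Among hypertrophy regulators Pth1r, the receptor of parathyroid hormone-related protein that holds chondrocytes back from hypertrophy, fell by 0.77 in CON (limma adjusted p = 0.00754) and 1.34 in LDP (adjusted p = 0.00015). In CON Foxa2, a factor that drives hypertrophic genes, rose by 1.19 from 2.64 to 7.40 CPM (adjusted p = 0.0492), and Ptch1, the hedgehog receptor, rose by 0.60 (adjusted p = 0.0481). Fgfr3 fell by 1.17 in LDP (limma adjusted p = 0.0232), and Gdf10 by 0.95 (adjusted p = 0.0270). Gdf10 went from 1.95 to 0.505 CPM, levels close to the pseudocount of 1. Of the 16 genes tested among the partners and opponents of RUNX2, 0 were higher and 1 lower in CON, and 0 higher and 3 lower in LDP. Zfp521, a zinc finger protein that represses RUNX2, fell by 0.51 in CON (limma adjusted p = 0.0354) and 0.43 in LDP (adjusted p = 0.04998). In LDP Twist1, another opponent of RUNX2, fell by 0.66 (adjusted p = 0.0151) and Tle1, a corepressor, by 0.47 (adjusted p = 0.0497).

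In the lists of mineral handling, Mgp, which encodes matrix Gla protein, an inhibitor of calcification, rose by 1.40 in CON (limma adjusted p = 0.00597), from 2341 to 6161 CPM, and by 0.82 in LDP (adjusted p = 0.0497). Sparc (osteonectin) fell by 1.76 in CON, from 16961 to 5016 CPM (adjusted p = 0.000801), and by 2.10 in LDP (adjusted p = 3.9e-05). Phospho1, the phosphatase that frees phosphate inside matrix vesicles, fell by 1.22 in LDP (adjusted p = 0.00154), and Enpp3, a relative of Enpp1, rose by 1.36 (adjusted p = 0.0299). Enpp2 (autotaxin), another relative of Enpp1, fell by 1.23 in CON (adjusted p = 0.0154), from 65.3 to 27.1 CPM. Fbn1 and Anxa6 also fell in both, and Gas6, Sparcl1 and Slc37a3 in LDP. The SIBLING and bone matrix list, 6 of 9 genes tested, and the troponin and tropomyosin list, 6 of 11 tested, had 0 calls by limma and 0 by edgeR in all 4 comparisons, with 0 to 1 and 0 to 2 genes at an unadjusted p under 0.05. Over all genes 0.181% and 0.259% passed in the injury comparisons and 8.33% and 14.3% over time, and with 6 genes a list nothing is read from these counts.

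Of the interleukin-17 family 7 genes were tested beside Il17b. The receptor gene Il17rb was at 12.6 ± 5.50 CPM in CON and 10.1 ± 4.13 CPM in LDP at 2 weeks, and 18.0 ± 1.84 and 13.2 ± 4.87 CPM at 8 weeks (SD, n = 4). Il17d fell by 0.75 (limma adjusted p = 0.00826) and Il17rd by 0.55 (adjusted p = 0.0383) from 2 to 8 weeks in LDP. Il17rd went from 1.30 to 0.552 CPM, levels close to the pseudocount of 1. None of the 7 passed in the other 3 comparisons, where 1 to 2 were at an unadjusted p under 0.05 and 0 passed by edgeR.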

How the data were processed

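Dissociated disc cells were captured in droplets and sequenced, and the authors aligned the reads, filtered cells by mitochondrial share, genes and UMIs, clustered each group and named the classes in Partek (rat build rn6, per the submitters' processing notes). The deposited values are log2(CPM + 1) per cell and gene. Beside them the authors gave the total count of each cell, and with it UMIs were recovered as estimated counts, of which 99.4% were whole within 0.02. Treatment of doublets and of free RNA is not given in the sources used here.

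The mean CPM over IVD cells was taken per library, and log2(mean CPM + 1) of genes with at least 1 CPM in at least 4 of 16 libraries was fitted with limma 3.58.1 (trend, R 4.3.3), with Benjamini-Hochberg adjustment over 11572 genes. The rat was the block for LDP against CON, since both libraries came from the same animal. The correlation of their deviations from the group means was -0.146, 0.201, 0.135, -0.183, 0.142, 0.454, 0.033 and 0.381 for rats 1 to 8. Times were compared over 4 group means. Alternatives used edgeR 4.0.16 on summed counts (with TMM or library size), other pseudocounts and filters, all cells, and each rat left out. Thinned shares and all pair ratios used cells thinned to 1000 UMIs, with shallower cells left out. Likeness was the log2 ratio of mean CPM (plus 10) in cells with and without a UMI of a member, over libraries with at least 30 positive cells, for genes averaging at least 5 CPM. Of each list, genes past an adjusted p of 0.05 were eligible to be named, at most 5 by p, or otherwise its most abundant genes. One gene that met the likeness rule is not reported here. Scripts ran in Python 3.11.15 and were tested on simulated data. The members and lists were chosen with earlier results of these data known. Libraries summed to 17737091 to 85010882 UMIs, and intervals and limits cover counting error only.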

Additional observations from a re-analysis of the deposited data

Results flagged for a closer look

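In 4 of 40 sets of 4 libraries tested, 1 library stood far from the other 3 by Dixon's test, which chance gives in about 1 in 20 sets. Ibsp was at 646 CPM in CON of rat 1 at 2 weeks against 206 to 263 CPM in the other CON libraries, and at 1737 CPM in LDP of the same rat against 264 to 335 CPM. The osteoblast and osteocyte genes summed to 343 CPM in that CON library, the highest of its group, and to 3.11 CPM in that LDP library, the lowest of its group. Ibsp was at 97.1 CPM in LDP of rat 5 at 8 weeks against 367 to 420 CPM. This library was also the lowest of its group for Col10a1 (20.5 CPM), Alpl (7.71 CPM), Ankh (39.2 CPM), Enpp1 (250 CPM), Runx2 (3.22 CPM), Tnni2 (21.0 CPM) and Spp1 (5111 CPM), so that 8 of the 9 members were lowest there. Over all genes the median difference at 8 weeks was -0.16, and -0.11 without rat 5. The share of all genes that were lowest in LDP of rat 5 was not counted, and nothing is read from the number of members. The erythroid marker genes summed to 1371 CPM in the IVD cells of that library against 31.1 to 355 CPM in the other 3, and to 3004 CPM in CON of the same rat. Ankh was at 67.3 CPM in CON of rat 6 at 8 weeks against 90.9 to 95.1 CPM. The causes were not tested.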

How the results depend on the processing

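Over all genes, 21 passed in LDP against CON at 2 weeks. The number was 3 with a pseudocount of 10, 12 with a minimum of 10 CPM, 0 by edgeR with library size only (1343 at an unadjusted p under 0.05), 0 with all cells (limma, 1119 at an unadjusted p under 0.05) and 0 to 7 when a rat was left out. At 8 weeks 30 passed, against 81 with a pseudocount of 0.1, 1 with all cells and 1 to 568 with a rat left out, the highest without rat 4. From 2 to 8 weeks 964 passed in CON, against 640 with all cells and 327 to 1226 with a rat left out, and 1659 in LDP, against 598 and 860 to 3145, the highest again without rat 4. In LDP over time edgeR with TMM called 867 higher and 1073 lower, against 531 and 1128 by limma. At 8 weeks it called 19 higher and 10 lower, against 13 and 17. The causes were not tested.

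Without the rat as a block 10 genes passed at 2 weeks and 35 at 8 weeks (8 higher, 27 lower), and with the rat as a random block 970 passed in CON and 1670 in LDP over time. The random block moved no member's call over time.

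The Col10a1 share (LDP minus CON) was 0.51 percentage points at 2 weeks, ran from -0.06 (without rat 1) to 1.62 when a rat was left out, and was -2.08 in IAF cells alone, a setting chosen after seeing the data. That value rested on rat 2 (18.3% in CON, 2.93% in LDP) and was 2.36 without it. At 8 weeks it was -2.88, with -4.31 to -1.34 when a rat was left out. Of the members' changes over time, 21 of the values in CON and 15 in LDP lost their call under an alternative and 1 gained it. Runx2 rested on 60 to 372 UMIs per library.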
